A study of Mus musculus with 54 samples.

Results

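Ovaries of F2 mice from 2 reciprocal crosses were compared: a control father with a dose 2 mother (the mother cross) and a dose 2 father with a control mother (the father cross). The 6 libraries, 3 per cross and lettered A to C, were chosen by the parents' groups named in the labels, out of 54 libraries in 18 groups of 3 in the whole series. The series measured RNA of testis and ovary after a mixture of ibuprofen, 2-hydroxyibuprofen, diclofenac and ethinyl-estradiol was given in drinking water. At dose 2 the water held ibuprofen at 113 ng/L, its metabolite 2-hydroxyibuprofen at 225 ng/L, diclofenac at 112 ng/L and, as the estrogen, ethinyl-estradiol at 45 ng/L, and controls drank water with 0.001% ethanol. Dose 1, whose crosses are used for comparison, had ibuprofen at 11.3 ng/L, 2-hydroxyibuprofen at 90 ng/L, diclofenac at 22.5 ng/L and ethinyl-estradiol at 2.25 ng/L. The exposed parents were F1 animals, whose mothers were dosed from 8.5 days post coitum and who drank the mixture themselves until they were killed. The labels record no treatment of the F2 animals, and give 30 days post partum as the age at which females of the study were killed and 35 days for males, whose F2 testes are used for comparison. Both crosses thus had 1 parent from the dose 2 group and 1 control parent, and differed in which parent that was. The labels name no mouse strain, and they do not say if a library is 1 animal or a pool, or if the 3 libraries of a cross came from separate litters, so p-values measure the spread between these samples.

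At this age the mouse ovary holds growing follicles, in which granulosa cells surround the oocyte and theca cells form the outer layer. Theca cells turn cholesterol into androgens with the proteins of Star, Cyp11a1 and Cyp17a1, and granulosa cells convert the androgens to estrogens with the aromatase of Cyp19a1. Follicle-stimulating hormone, activins and inhibins regulate granulosa cells, ethinyl-estradiol binds the estrogen receptors of Esr1 and Esr2, and ibuprofen and diclofenac inhibit the prostaglandin synthases of Ptgs1 and Ptgs2.

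The 6 libraries held 38.9 to 50.5 M gene counts (M for mega, median 42.7) with 19519 to 19807 genes detected. Levels are CPM, counts scaled to library size after the trimmed mean of M values (TMM), whose factors lay between 0.998 and 1.01 in these libraries. Granulosa, oocyte and theca markers were present in all 6: Foxl2 at 230 to 421 CPM, Amh at 382 to 564 CPM, Gdf9 at 165 to 232 CPM, Zp3 at 108 to 145 CPM and Cyp17a1 at 245 to 1411 CPM. The sperm protamine Prm1 was at 0.186 CPM or less, and the red cell globin Hbb-bs was at 0 in all 6. The other 12 F2 ovary libraries, which share the estimate of the spread, included 3 that stood apart on the first 2 principal components (22.1% and 14.9% of the variance): dose 1 mother C at 97.3 on the first, and dose 1 mother B and the cross with both parents from dose 2, library C, at -36.6 and 62.4 on the second. The 6 libraries lay between -10.6 and 5.42 on the first component. Their typical distance, the root mean square log2 difference over genes, was 0.439 to 0.495 within the mother cross, 0.442 to 0.487 within the father cross and 0.436 to 0.524 between the crosses, so the ranges within and between crosses overlapped.

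No gene passed the test between the mother and the father cross. The lowest edgeR adjusted p was 0.9997, and 0 of 17400 tested genes (0%) were called at an adjusted p under 0.05. At an unadjusted p under 0.05 edgeR gave 414 genes (2.38%), 194 higher in the mother cross (1.11%) and 220 lower (1.26%), where chance alone would give 870. DESeq2 called 2 genes, both higher in the mother cross, which were Gata6 (DESeq2 adjusted p = 0.0134) and Akr1e1 (DESeq2 adjusted p = 0.0244). Fitted to the 6 libraries alone, edgeR called 1 gene, Srp54a, a signal recognition particle gene with close copies in the mouse genome among which reads can be split (edgeR adjusted p = 0.0381). That fit gave 1014 of 16716 genes at an unadjusted p under 0.05, where chance would give 835.8. The 3 mother libraries lay entirely above or below the 3 father libraries in 1916 genes (11%), of which 991 (5.7%) were higher and 925 (5.32%) lower. Chance alone separates 3 from 3 libraries with a probability of 0.1 for each gene, close to the share seen. The log2 fold change, mother cross minus father cross throughout, was above 0 in 49.6% of genes and had a median of -0.00.

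**Figure D1:**
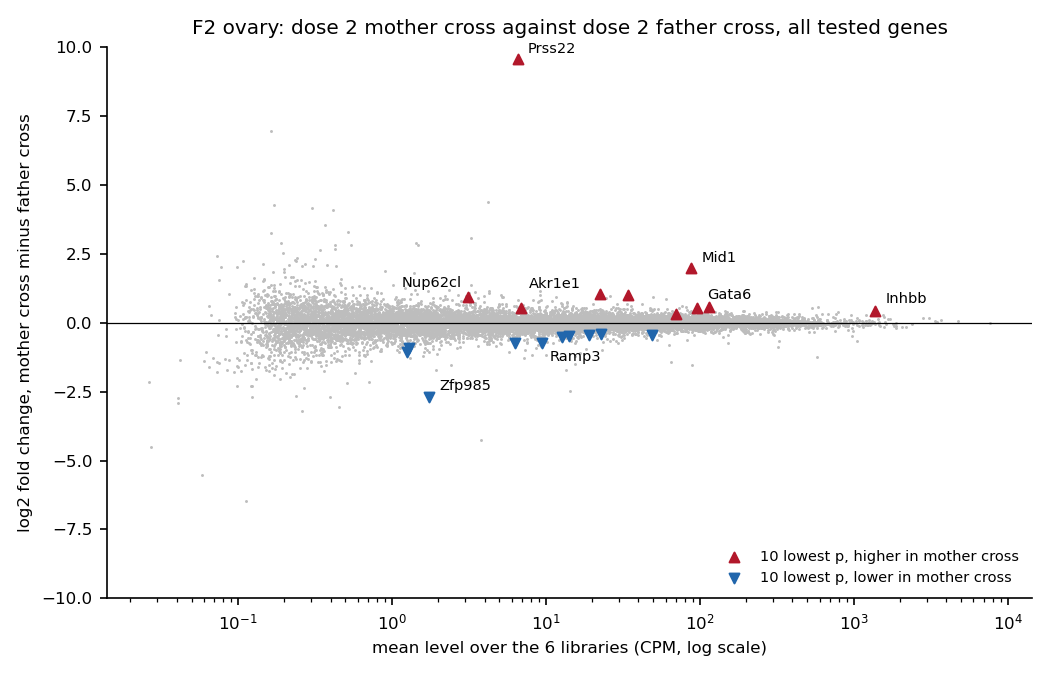
Log2 fold change of each tested gene (mother cross minus father cross, vertical axis) against its mean CPM over the 6 libraries (log scale, horizontal axis). Grey points are the 17400 tested genes, and triangles mark the 10 genes of lowest unadjusted p in each direction. They were picked among genes without overlap between the crosses and averaging 1 CPM or more in the higher cross. None of these 20 passed at an edgeR adjusted p under 0.05. The spread is widest below 1 CPM, and Prss22 lies farthest above 0.

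The data bounded the differences more tightly for well expressed genes than for low ones. The 95% interval of the log2 fold change reached, in the median, 0.40 to either side over all tested genes and 0.35 over the 14529 genes averaging 1 CPM or more. It lay wholly within 2-fold in either direction for 78.5% of all genes and 91% of those at 1 CPM or more, and within 1.5-fold for 54.9% and 65.7%. Fitted changes beyond 2-fold were found in 315 genes, 48 of them averaging 1 CPM or more. In whole ovary, fewer cells of a type and less RNA per cell cannot be told apart.

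The 10 genes with the lowest p among those higher in every mother library are given as values, since none passed. Gata6, which encodes a zinc finger transcription factor of granulosa and theca cells, was at 124, 104 and 114 CPM in mother libraries A, B and C and at 69.3, 82.2 and 82.7 CPM in father libraries A, B and C. The lowest mother library was thus well above the highest father library, and the log2 fold change was 0.55 (SE 0.10, 95% interval 0.33 to 0.77, edgeR adjusted p = 0.9997). Akr1e1, an aldo-keto reductase gene, was at 30.3, 27.3 and 32.6 CPM against 14.4, 12.7 and 16.9 CPM. Its 6 values formed separate ranges with a log2 fold change of 1.03 (SE 0.21, 95% interval 0.58 to 1.48, edgeR adjusted p = 0.9997). Inhbb, which encodes the beta B subunit of activin B and inhibin B, was the most abundant of the 10, at 1612, 1477 and 1608 CPM against 1057, 1293 and 1178 CPM. Its ranges did not overlap, and its log2 fold change was 0.41 (SE 0.12, 95% interval 0.16 to 0.66, edgeR adjusted p = 0.9997).

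Several of these genes varied more within the mother cross than Gata6 and Inhbb did. Scara5, a ferritin receptor gene, was at 57.3, 37.0 and 43.4 CPM against 25.7, 20.1 and 23.1 CPM (log2 fold change 1.00, SE 0.23). Mid1, which encodes a microtubule-binding ubiquitin ligase and spans the pseudoautosomal boundary in the house mouse, was at 198, 62.9 and 158 CPM against 30.4, 42.1 and 34.5 CPM. Mother library B was the low one, and the log2 fold change of 1.97 had an SE of 0.51. Mid1 also varied widely within the control cross (30.3 to 100 CPM), the dose 1 mother cross (37.4 to 195 CPM) and F1 controls (69.1 to 292 CPM). The dose 1 father cross was at 160 to 166 CPM. Prss22, a serine protease gene, had 1012, 2 and 682 counts in the mother libraries and 2, 0 and 0 in the father libraries. Mother B thus matched the father libraries, and control cross libraries ranged from 0.0235 to 22.6 CPM. The ratio of its summed levels was 923, with a counting interval of 255 to 7628 that covers counting error only. Its fitted log2 fold change of 9.57 rests on these few father counts and on mother A and C.

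The remaining genes of this group had small ranges in both crosses. Enc1, a kelch family gene for an actin-binding protein, was at 136 ± 8.51 CPM in the mother cross and 92.9 ± 6.76 CPM in the father cross (mean ± SD, n = 3 libraries, here and below), a log2 fold change of 0.55. Papss2, which makes the sulfate donor of sulfotransferases, was at 78.7 ± 5.73 against 62.6 ± 3.13 CPM, a log2 fold change of 0.33. Nup62cl, a nucleoporin-like gene, was at 4.12 ± 0.740 against 2.17 ± 0.103 CPM, and the ubiquitin ligase gene Rnf182 at 8.18 ± 0.207 against 5.64 ± 0.439 CPM. Their log2 fold changes were 0.93 and 0.54, and the edgeR adjusted p was 0.9997 for each of these 4 genes.

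**Figure D2:**
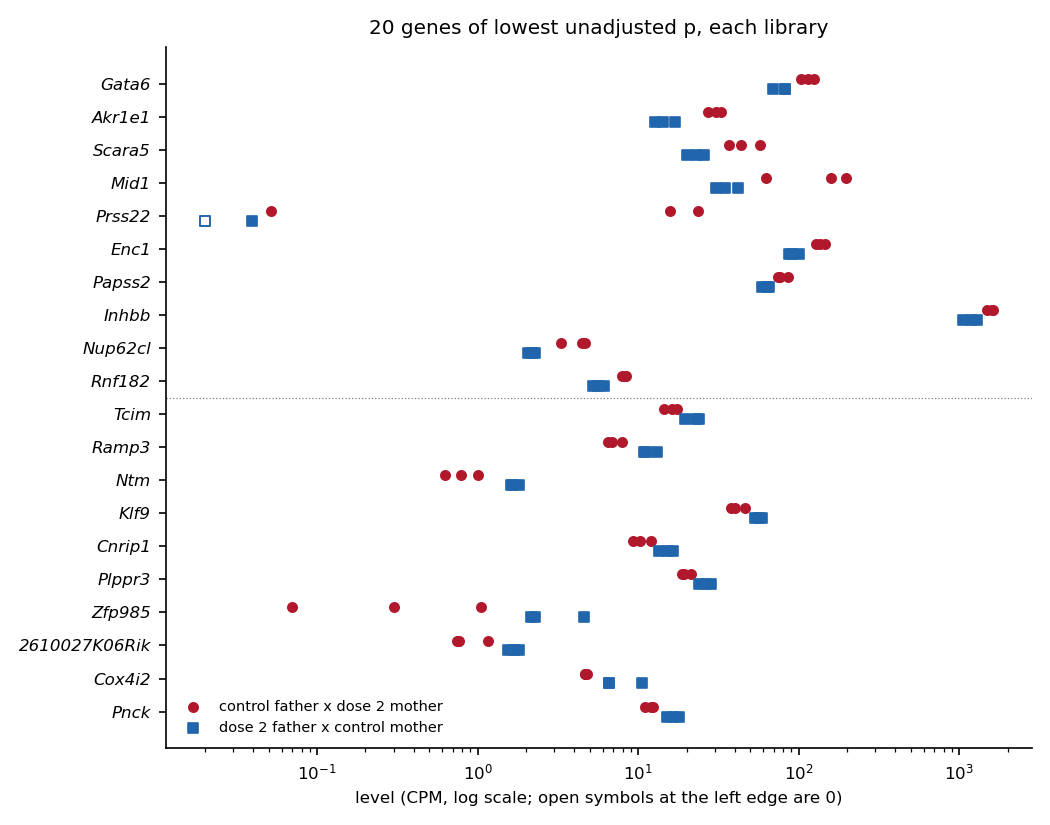
Level in each of the 6 libraries (CPM, log scale) of the 10 genes of lowest p above and the 10 below the dotted line, those higher and lower in the mother cross; circles are mother libraries, squares father libraries, and open symbols are counts of 0. The 2 crosses do not overlap in any of the 20 genes because the genes were picked for that; Prss22 in mother B, at 0.0515 CPM, is close to the father libraries.

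Among the 10 genes of lowest p that were lower in every mother library, most were of low level. Ramp3, which encodes a partner protein of the adrenomedullin receptor, was at 6.87, 6.49 and 7.88 CPM in the mother libraries and at 11.2, 13.1 and 10.8 CPM in the father libraries. Those ranges were separate, with a log2 fold change of -0.72 (SE 0.17, 95% interval -1.09 to -0.36, edgeR adjusted p = 0.9997). Klf9, a Krüppel-like factor gene induced by glucocorticoids and progesterone, was at 40.0, 46.0 and 37.7 CPM against 58.9, 56.1 and 53.2 CPM. Each father library exceeded each mother library, and the log2 fold change was -0.45 (SE 0.12, edgeR adjusted p = 0.9997). Tcim, a small regulator of transcription, was at 16.1 ± 1.45 against 22.1 ± 2.30 CPM and had the lowest p of the group, with a log2 fold change of -0.46 (SE 0.11, edgeR adjusted p = 0.9997).

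The others of the lower group ranged from -2.68 to -0.42 in log2 fold change. Zfp985, a zinc finger gene, was at 0.0696, 1.06 and 0.30 CPM against 2.13, 2.29 and 4.62 CPM, so its value rests on levels near or under 1 CPM in the mother cross. The neuronal adhesion gene Ntm was at 0.806 ± 0.191 against 1.69 ± 0.0945 CPM, and 2610027K06Rik at 0.889 ± 0.230 against 1.69 ± 0.137 CPM. Cox4i2, an isoform of a cytochrome c oxidase subunit, was at 4.67, 4.82 and 4.67 CPM against 10.6, 6.59 and 6.58 CPM, with father A the high library. Cnrip1, a cannabinoid receptor binding protein gene, was at 12.0, 9.24 and 10.3 CPM against 13.4, 16.5 and 15.02 CPM. Plppr3, of the lipid phosphatase-related family, was at 19.7 ± 1.29 against 26.3 ± 2.19 CPM, and the calmodulin-dependent kinase gene Pnck at 11.8 ± 0.648 against 16.5 ± 1.37 CPM. The edgeR adjusted p was 0.9997 for each of these 7 genes.

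The control cross shows which of the crosses lay nearer to it, gene by gene. Akr1e1 was at 26.2 to 30.1 CPM in the 3 control libraries, close to the mother cross and above every father library. The log2 fold change against the control cross was 0.09 for the mother cross (edgeR adjusted p = 1.00) and -0.95 for the father cross (edgeR adjusted p = 0.62). The cross with both parents from dose 2 had 11.9 to 19.3 CPM of Akr1e1, also below the control range, while the dose 1 father cross had 31.3 to 34.2 CPM and the dose 1 mother cross 15.9 to 30.7 CPM. In F1 ovaries Akr1e1 was at 17.4 to 24.2 CPM at dose 2 and 16.3 to 26.0 CPM in controls, and those ranges overlapped. Gata6 was at 82.9 to 98.1 CPM in the control cross, below every mother library. That was also above every father library, but at the nearest by 82.9 against 82.7 CPM. Gata6 was at 87.9 to 94.1 CPM in the cross with both parents from dose 2, inside the control range. Gata6 was at 93.0 to 116 CPM in the dose 1 mother cross and at 89.3 to 96.4 CPM in the dose 1 father cross. Its log2 fold change against the control cross was 0.34 for the mother cross (edgeR adjusted p = 0.64) and -0.20 for the father cross (edgeR adjusted p = 1.00).

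Other genes of the 20 were placed differently. Scara5 was at 23.7 to 30.7 CPM in the control cross, with a log2 fold change of 0.80 for the mother cross and -0.20 for the father cross. Nup62cl was at 4.80 to 6.56 CPM in the control cross, above every library of both dose 2 crosses, with values of -0.46 and -1.39. Ntm was at 0.762 to 1.07 CPM in the control cross, overlapping the mother cross and under every father library, with values of -0.12 and 0.96. Cox4i2 was at 5.84 to 11.2 CPM in the control cross, with values of -0.82 and -0.07. These pairs of values share the same 3 control libraries and are given only side by side. Against the control cross edgeR called 0 of 17400 genes (0%) for either dose 2 cross. At an unadjusted p under 0.05 it gave 1044 genes (6%) for the mother cross and 664 (3.82%) for the father cross, and DESeq2 called 24 and 7. The 24 included Cyp11a1, Ephx1 and Plin1, and the 7 included Akr1e1 and Nup62cl.

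**Figure D3:**
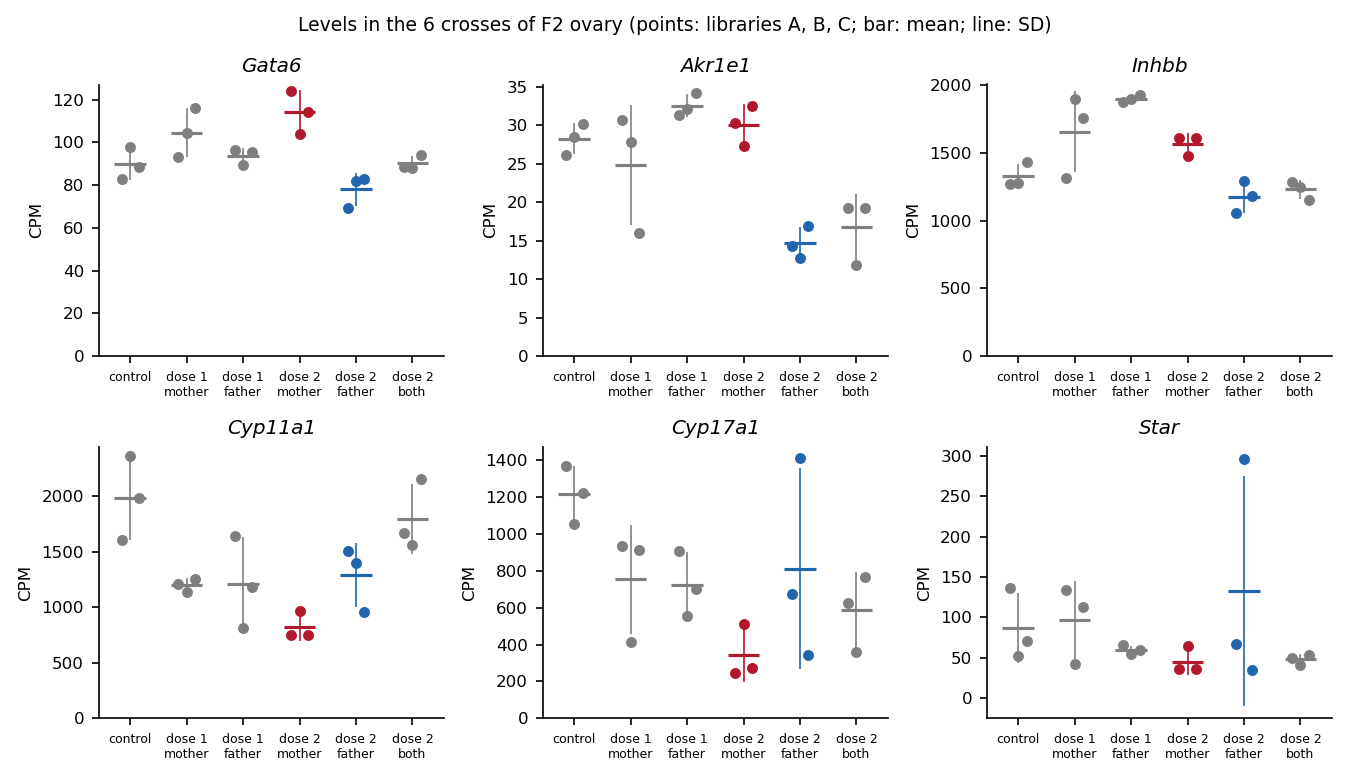
Levels (CPM) of Gata6, Akr1e1, Inhbb, Cyp11a1, Cyp17a1 and Star in the 6 crosses of F2 ovary, with points for libraries A, B and C, a bar for the mean and a line for the SD; the dose 2 mother cross is red, the dose 2 father cross blue and the others grey. Akr1e1 is below 20 CPM in all libraries of both crosses with a dose 2 father, and also in dose 1 mother C, at 15.9 CPM. In father library B Star and Cyp17a1 reach 296 and 1411 CPM.

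Star, Cyp11a1 and Cyp17a1 had higher means in the father cross, with a wide spread between its libraries, while other steroidogenic genes had both signs. Star, which carries cholesterol into mitochondria, was at 35.8, 64.3 and 35.8 CPM in the mother libraries and at 67.0, 296 and 35.3 CPM in the father libraries. Father B was far above the others, father C was level with mother A and C, and the crosses overlapped. The log2 fold change was -1.55 (SE 0.59, edgeR adjusted p = 0.9997), and it was -0.18 without father B. Cyp17a1, the enzyme that makes androgens, was at 245, 511 and 273 CPM against 676, 1411 and 345 CPM. Here too father B was highest and father C lay within the mother range. The log2 fold change was -1.24 (SE 0.44, edgeR adjusted p = 0.9997), and -0.58 without father B.

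Cyp11a1, the enzyme that cuts the cholesterol side chain, was at 752, 968 and 748 CPM in the mother libraries against 1505, 1398 and 960 CPM in the father libraries. Father C lay just below mother B, so the ranges overlapped slightly, and the log2 fold change was -0.65 (SE 0.23, 95% interval -1.12 to -0.17, edgeR adjusted p = 0.9997). Leaving out single libraries gave values from -0.81 to -0.52. The control cross had 1600.45 to 2356 CPM of Cyp11a1, more than every library of the mother or the father cross. The log2 fold changes against it were -1.27 for the mother cross (edgeR adjusted p = 0.24) and -0.62 for the father cross. The cross with both parents from dose 2 had 1557 to 2151 CPM, which overlapped the control cross. F1 ovaries, scaled apart, had 623 to 1386 CPM in controls, 1406 to 1573 CPM at dose 1 and 503 to 2214 CPM at dose 2. Hsd3b1, which makes progesterone from pregnenolone, was close in both crosses, at 3439 ± 245 and 3302 ± 416 CPM, with a log2 fold change of 0.06 (95% interval -0.16 to 0.28). Cyp19a1 was at 44.8, 61.2 and 49.5 CPM against 25.9, 41.5 and 30.6 CPM. Each mother library exceeded each father library, but the 95% interval of its log2 fold change of 0.67 ran from -0.46 to 1.79 (edgeR adjusted p = 0.9997). The fit shares its spread with the other crosses, among which the control cross ranged from 41.4 to 180.2 CPM of Cyp19a1.

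The receptors of hormones and of the estrogen in the mixture showed small differences with intervals that spanned 0. Fshr, the receptor of follicle-stimulating hormone, had a log2 fold change of 0.20 (95% interval -0.19 to 0.58), and Lhcgr, the receptor of luteinizing hormone, of -0.31 (-1.28 to 0.67). Lhcgr was at 90.3 ± 32.6 CPM in the mother cross and 112 ± 27.5 CPM in the father cross, against 169 to 436 CPM in the control cross. Esr1 was at 49.8 ± 3.30 against 48.2 ± 5.92 CPM, with a log2 fold change of 0.05 (95% interval -0.25 to 0.35). Esr2, the main estrogen receptor of granulosa cells, was at 282 ± 22.2 against 243 ± 44.9 CPM, with a log2 fold change of 0.21 (-0.15 to 0.58). The progesterone receptor gene Pgr was near 2 to 3 CPM in both crosses, with a log2 fold change of -0.33 (-1.09 to 0.43).

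The prostaglandin synthases targeted by ibuprofen and diclofenac were expressed at low levels. Ptgs1 was at 4.09, 3.84 and 2.66 CPM in the mother libraries and 2.59, 3.01 and 4.13 CPM in the father libraries, which overlapped fully, with a log2 fold change of 0.12 (95% interval -0.37 to 0.61). Ptgs2 had 10, 13 and 29 counts in the mother libraries and 8, 0 and 3 in the father libraries. All 6 values were below 1 CPM, and the ratio of the summed levels was 5.15 with a counting interval of 2.65 to 10.9. The spread between libraries was larger than counting error, with a fitted log2 fold change of 2.36 (95% interval 0.25 to 4.47, edgeR adjusted p = 0.9997). Of 4 other growth factor and oocyte genes, Amh had a log2 fold change of -0.02 (95% interval -0.51 to 0.46), Inha of 0.05 (-0.25 to 0.36), Gdf9 of 0.13 (-0.34 to 0.61) and Zp3 of 0.15 (-0.37 to 0.67). The signs of Hsd3b1, Ptgs1, Amh, Esr1 and Inha changed with single libraries left out, and the values ran from -0.54 to -0.04 for Lhcgr, 0.02 to 0.32 for Fshr, 0.13 to 0.38 for Esr2 and 0.04 to 0.21 for Gdf9.

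**Figure D4:**
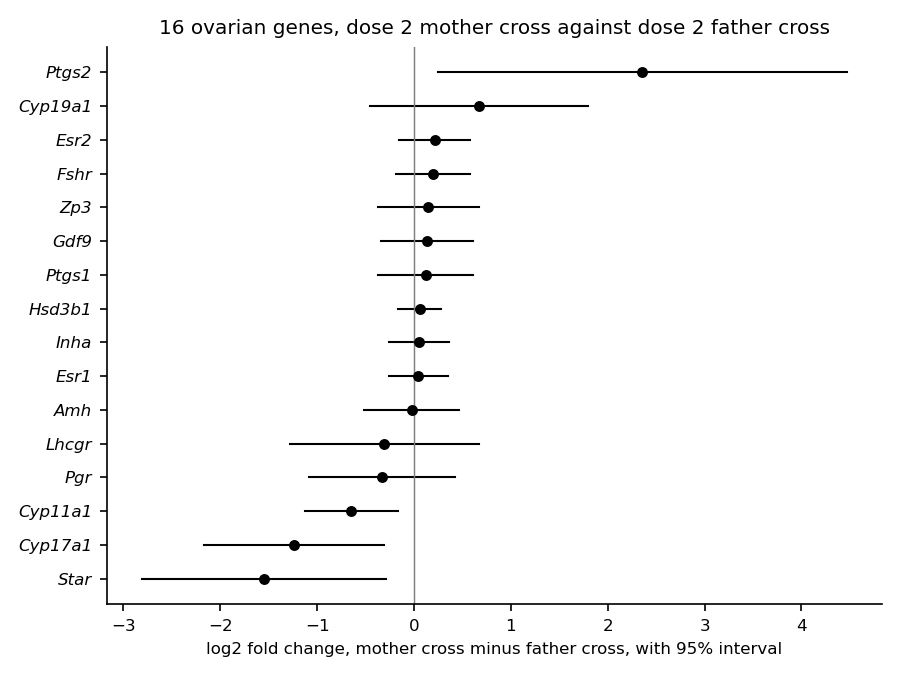
Log2 fold change (mother cross minus father cross, horizontal axis) of 16 ovarian genes with its 95% interval from the edgeR fit of 18 libraries. Star, Cyp17a1, Cyp11a1 and Ptgs2 have intervals that exclude 0 before adjustment, and the edgeR adjusted p of each of the 16 was 0.9997.

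Lists of ovarian, pathway and cell type genes were described by counts and medians beside those of all genes. The 34 lists held 579 genes, of which 543 were tested and 0 called. An unadjusted p under 0.05 was found in 21 of them (3.87%, against 2.38% of all genes), and 56 (10.3%, against 11% of all genes) had no overlap between the crosses. List medians ranged from -1.15 to 0.53, where the median of all genes was -0.00 and 49.6% of genes were above 0. Some genes belong to more than 1 list. Levels were also summed per list, and of the 34 sums 2 were higher and 3 lower in the mother cross without overlap. The higher ones were DNA methylation and skeletal muscle genes, and the lower ones theca and interstitial, adipocyte and macrophage genes. For 3 against 3 libraries chance alone gives no overlap with a probability of 0.1 for each list. Some medians moved by more than the spread of the list's libraries when a library was left out, and their values without it are given beside them.

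Granulosa cell genes were more often above 0 than below. Of 24 tested, 20 had a positive log2 fold change, with a median of 0.16. The crosses did not overlap in 6 higher genes (Cyp19a1, Inhba, Inhbb, Hsd17b1, Kitl and Nppc) and in 1 lower gene (Gatm). Of all genes 5.7% were higher and 5.32% lower without overlap. Inhba, the beta A subunit of activin A and inhibin A, was at 586, 859 and 667 CPM in the mother libraries and at 491, 451 and 487 CPM in the father libraries. The father libraries were close together and all below the mother libraries, but the 95% interval of the log2 fold change of 0.56 was -0.35 to 1.47 (edgeR adjusted p = 0.9997). Hsd17b1, which reduces estrone to estradiol, was at 482, 401 and 486 CPM against 359, 362 and 373 CPM, a log2 fold change of 0.32 (95% interval 0.06 to 0.58). Kitl, the granulosa ligand of the oocyte's Kit receptor, was at 62.5, 51.6 and 81.3 CPM against 49.3, 24.4 and 28.9 CPM, and Nppc, the precursor of the peptide that holds oocytes in meiotic arrest, at 37.9 ± 8.85 against 26.6 ± 1.72 CPM. The summed level of the list was 15108 to 16051 CPM in the mother cross and 13086 to 15580 CPM in the father cross, which overlapped. Without father C the median of the list was 0.31.

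Oocyte genes were above 0 in 22 of 26 cases, with a median of 0.12 and values from -0.37 for Sohlh1 to 0.26 for Nlrp5. Only Bmp15, an oocyte growth factor gene, was without overlap between the crosses, at 56.6 ± 4.48 CPM against 50.7 ± 3.68 CPM. The summed oocyte level was 1813 to 2204 CPM in the mother cross, 1694 to 1961 CPM in the father cross and 1293 to 2089 CPM in the control cross. Genes of the TGF-beta family signal, which includes activins and inhibins, were above 0 in 22 of 32 cases with a median of 0.05, or 0.12 without father C. Inhba, Inhbb, Acvr1b, Smad2 and Smad6 were higher without overlap, as were 5.7% of all genes. Smad6, an inhibitory Smad, was at 20.5, 17.0 and 17.9 CPM against 14.5, 16.5 and 14.0 CPM.

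Theca, steroidogenic and luteal lists had medians near 0 with a few members far below it. Theca and interstitial cell genes had 7 members above and 10 below 0 (median -0.05, or -0.22 without mother A), from Cyp17a1 at -1.24 to Gli1, a hedgehog target, at 0.24. Their summed level was 2506 to 2792 CPM in the mother cross and 2852 to 4085 CPM in the father cross without overlap. In the control cross it was 3699 to 4100 CPM. Cyp17a1 alone held 245 to 511 CPM in the mother cross and 345 to 1411 CPM in the father cross. A sum without it was not made, so the gap cannot be read as one of the list as a whole. Steroidogenesis genes had 8 members above and 11 below 0 (median -0.02). The luteal list had 5 above and 13 below (median -0.07). Akr1c18, which inactivates progesterone, was the highest of both lists, at 1.51, 2.78 and 1.27 CPM in the mother libraries and 0.627, 0.697 and 0.755 CPM in the father libraries. Those ranges did not overlap, and the log2 fold change of 1.41 had a 95% interval of -0.47 to 3.30. Parm1, a luteal list gene, was at 18.2 ± 3.13 against 11.9 ± 2.54 CPM with overlap between the crosses, and a log2 fold change of 0.61.

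Genes of ovulation, estrogen response and the metabolism of drugs showed both signs. The ovulation list had 12 members above and 11 below 0 (median 0.03, or 0.09 without father B). Runx1, a transcription factor gene induced before ovulation, was at 28.0, 29.1 and 25.8 CPM against 19.8, 24.7 and 20.9 CPM. Cebpa, a partner of that program, was at 116 ± 8.25 against 168 ± 51.5 CPM, with father B highest at 219 CPM. Estrogen receptor and response genes had 11 above and 7 below 0 (median 0.07). Ltf, an estrogen target of the uterus, was at 0.627, 11.0 and 5.80 CPM against 1.37, 0.199 and 0.466 CPM, and mother A lay inside the father range. Greb1, an estrogen-induced gene, was at 754 ± 130 against 608 ± 59.6 CPM with a log2 fold change of 0.31 (95% interval -0.04 to 0.66).

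The prostaglandin list had 11 members above and 10 below 0 (median 0.01), with Ptgis, the prostacyclin synthase gene, at 105 ± 3.90 against 124 ± 5.72 CPM without overlap. Genes of xenobiotic and estrogen metabolism had 6 above and 13 below 0 (median -0.05, or -0.15 without mother A). Ephx1, an epoxide hydrolase gene, was at 199, 193 and 152 CPM against 252, 248 and 206 CPM. The ranges were separate, with a log2 fold change of -0.38 (95% interval -0.70 to -0.05, edgeR adjusted p = 0.9997). PPAR and fatty acid oxidation genes had 4 above and 14 below 0 (median -0.04), and cholesterol synthesis and uptake genes 22 above and 5 below 0 (median 0.07, or 0.19 without father A). In the cholesterol list no gene was without overlap, and its summed level was 2950 to 3058 CPM in the mother cross, 2668 to 3126 CPM in the father cross and 3389 to 3857 CPM in the control cross.

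Imprinted genes, which are expressed from the copy of 1 parent, lay evenly on both sides of 0. Of 36 listed, 34 were tested, with 16 above and 18 below 0 and a median of -0.01, and none was without overlap between the crosses. The lowest was Meg3, a maternally expressed long RNA, at 185 ± 23.0 against 215 ± 9.32 CPM. The highest was Magel2 at 0.64, a gene with under 0.3 CPM in every library. H19 was at 43.9 ± 9.71 against 36.6 ± 11.2 CPM, Igf2 at 12.9 ± 1.80 against 12.2 ± 3.17 CPM and Peg3 at 41.5 ± 7.61 against 32.3 ± 6.98 CPM. Their intervals all spanned 0, as that of Peg3 from -0.33 to 1.06 shows.

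DNA methylation genes had 12 of 16 members above 0, with a median of 0.13, or 0.09 without mother B. Dnmt1, the maintenance methyltransferase, was at 315, 301 and 309 CPM in the mother libraries and at 263, 273 and 274 CPM in the father libraries. Its ranges were narrow and separate, and its log2 fold change was 0.19 (95% interval -0.05 to 0.44). Dnmt3a, a de novo methyltransferase gene, was at 191 ± 9.43 against 161 ± 10.6 CPM, Uhrf1, which recruits Dnmt1, at 183 ± 10.8 against 160 ± 4.37 CPM, and the demethylase gene Kdm1b at 47.0 ± 1.20 against 40.7 ± 4.36 CPM. All 4 genes were higher in every mother library, as were 5.7% of all genes. The summed level of the list was 1977 to 2025 CPM in the mother cross, 1852 to 1900 CPM in the father cross and 1720 to 1834 CPM in the control cross. The smallest p an exact permutation test of 3 against 3 libraries can give is 0.1, so none was run on such sums.

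Cell cycle genes had 19 members above and 10 below 0 (median 0.05). Against 5.7% of all genes, 9 of the list were higher in every mother library. These were Pcna, Mcm2, Mcm3, Mcm4, Mcm5, Mcm6, Bub1b, Foxm1 and Rrm2, most of which act in DNA replication. Mcm3, a subunit of the replicative helicase, was at 153, 146 and 150 CPM against 121, 126 and 121 CPM. The 6 values left a wide gap for their spread, and the log2 fold change was 0.29 (95% interval 0.03 to 0.54, edgeR adjusted p = 0.9997). Mcm2 was at 149 ± 7.87 against 120 ± 6.45 CPM and Mcm4 at 105 ± 7.47 against 88.2 ± 3.86 CPM. The proliferation marker Mki67 was the lowest of the list, at -0.15. Summed cell cycle levels overlapped, at 2846 to 3168 CPM in the mother cross and 2787 to 2861 CPM in the father cross.

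Ribosomal protein genes had 5 of 34 members above 0 with a median of -0.05, immediate early genes 8 of 21 (median -0.05), heat shock genes 12 of 15 (median 0.15) and interferon response genes 11 of 25 (median -0.05). Nuclear-retained and ribosomal precursor RNAs had 1 of 9 above 0 (median -0.22, or -0.06 without mother C and -0.05 without father A), from Neat1 at 184 ± 11.6 against 243 ± 20.7 CPM to Xist at 0.10. These lists mark RNA handling and stress, and their part in the other values was not tested.

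Macrophage, matrix, smooth muscle and endothelial genes were mostly below 0, while antigen presentation genes were mostly above 0 and lymphocyte markers had both signs. All 12 macrophage markers had a log2 fold change below 0, with a median of -0.42 against -0.00 for all genes. Cd68, C1qc, Mrc1, Lyz2 and Fcgr1 were lower in every mother library, as were 5.32% of all genes. Mrc1, the mannose receptor of tissue macrophages, was at 19.6, 20.1 and 19.3 CPM against 24.9, 25.9 and 28.2 CPM. The mother libraries were nearly equal and all lower, with a log2 fold change of -0.42 (95% interval -0.85 to 0.02, edgeR adjusted p = 0.9997). Cd68, a lysosomal macrophage protein, was at 13.0 ± 2.35 against 19.3 ± 2.23 CPM, and the complement gene C1qc at 26.1 ± 5.24 against 38.7 ± 6.57 CPM. Summed macrophage markers were 228 to 283 CPM in the mother cross, 315 to 374 CPM in the father cross and 325 to 434 CPM in the control cross.

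Extracellular matrix genes were below 0 in 18 of 20 cases (median -0.18), with Col6a3 at 344 ± 21.0 against 418 ± 51.9 CPM and the proteoglycan gene Lum at 174 ± 8.47 against 221 ± 28.4 CPM without overlap. All 10 smooth muscle markers were below 0 (median -0.23), from Myh11, the smooth muscle myosin, at -0.35 to Synpo2 at -0.12. Their summed level overlapped, at 2194 to 2795 CPM in the mother cross and 2615 to 3381 CPM in the father cross. All 13 endothelial markers were below 0 (median -0.15), with Egfl7 at 58.7 ± 5.54 against 70.7 ± 7.81 CPM without overlap. Ovarian surface epithelium markers had 12 of 13 below 0 (median -0.09).

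Adipocyte markers had the lowest median, -1.15, with 10 of 11 below 0. Adipoq, the fat hormone adiponectin, was at 0.859, 0.850 and 1.132 CPM in the mother libraries and at 0.979, 5.95 and 5.69 CPM in the father libraries, where father B and C were high and father A was within the mother range. The lipid droplet gene Plin1 was at 35.1, 32.1 and 25.7 CPM against 43.3, 41.7 and 39.4 CPM. Its ranges did not overlap, with a log2 fold change of -0.42 (95% interval -0.76 to -0.09, edgeR adjusted p = 0.9997). Summed adipocyte markers were 178 to 225 CPM in the mother cross, 232 to 313 CPM in the father cross and 199 to 277 CPM in the control cross. The part of these cell types in the other gene differences was not tested.

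Other neighbouring tissues gave little difference or low levels. Oviduct markers had 7 above and 9 below 0 (median -0.07), with summed levels of 46.8 to 49.7 CPM in the mother cross and 46.6 to 62.01 CPM in the father cross. Uterus markers had 3 of 7 members tested, all above 0 (median 0.53, and 0.22 to 0.73 with single libraries left out), and summed levels of 38.5 to 45.7 against 37.3 to 40.6 CPM. Antigen presentation genes had 8 of 9 above 0 (median 0.24, or -0.17 without mother A), and their mother libraries ranged from 180 to 392 CPM around father libraries at 219 to 253 CPM. Lymphocyte markers had 5 above and 6 below 0 (median -0.03, or -0.50 without mother A) and erythroid markers 2 of 2 tested below 0, with 4 of 7 listed genes at 0 in every library of each cross. Skeletal muscle markers summed to under 8 CPM in every library of both crosses. They were at 7.69 to 7.88 CPM in the mother cross and 6.47 to 7.55 CPM in the father cross, without overlap. The 4 tested testis markers were above 0 with a median of 0.11.

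**Figure D5:**
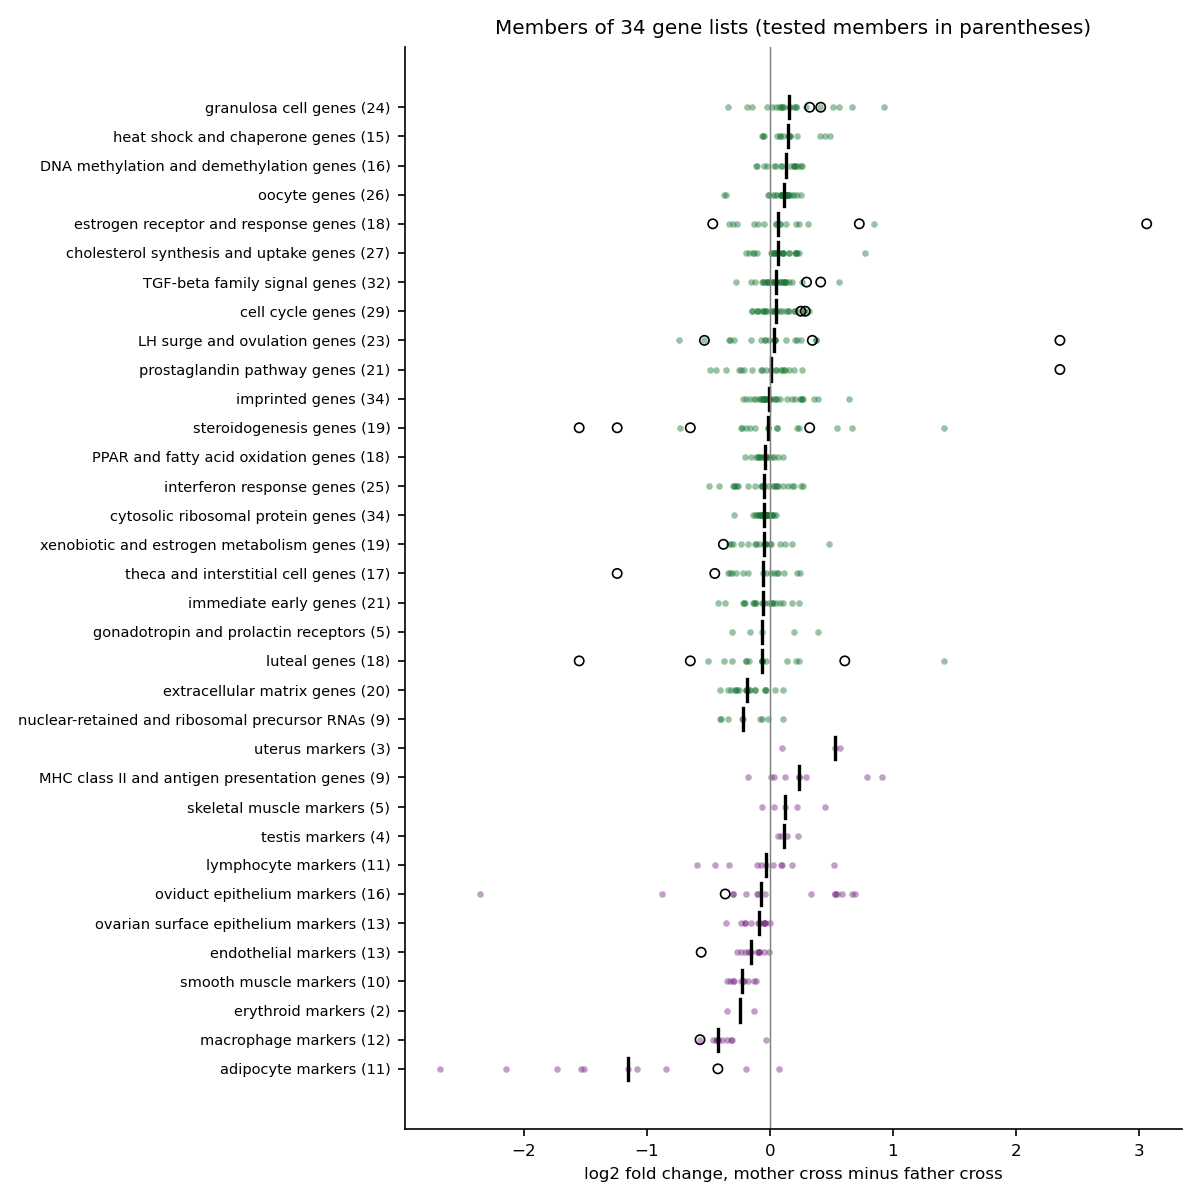
Log2 fold change (mother cross minus father cross, horizontal axis) of each tested member of 34 gene lists, with ovarian and pathway lists in green, lists of other cell types in purple, a black bar at the list median and open circles for members with an unadjusted p under 0.05. No member passed at an edgeR adjusted p under 0.05; the adipocyte and macrophage lists have the lowest medians, -1.15 and -0.42.

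At dose 1 the same reciprocal contrast gave another picture for a single gene by edgeR. The difference of the mother minus father change between dose 2 and dose 1 was called for 1 of 17400 genes (0.00575%), with 682 genes (3.92%) at an unadjusted p under 0.05 and 3 called by DESeq2. The call was lost with all 27 ovary libraries, which gave 0 genes (lowest edgeR adjusted p = 0.87). The count was 2 with the compared libraries alone and 2 without dose 1 mother A or without dose 1 father A. The gene was Gm9199, a predicted gene whose counts may be shared with similar sequences. It was at 0.836, 2.11 and 2.70 CPM in the dose 2 mother libraries and 2.94, 2.99 and 1.84 CPM in the dose 2 father libraries, which overlapped. At dose 1 it was at 5.42, 3.08 and 5.58 CPM in the mother libraries and at 0.0706, 0.0891 and 0 CPM in the father libraries, which had 3, 4 and 0 counts. The difference between doses was -6.88 on the log2 scale (edgeR adjusted p = 0.00415). Among the F2 crosses the dose 1 father libraries were the low ones, and the control cross had 1.91 to 5.01 CPM of Gm9199. In F1 ovaries Gm9199 was at 0.0225 to 2.02 CPM in controls, 2.03 to 5.78 CPM at dose 1 and 0.0209 to 1.78 CPM at dose 2. Akr1e1, AU021092, Sprn and Mb were next, each with an edgeR adjusted p = 0.88. DESeq2 called Akr1e1 and AU021092 for this difference beside Gm9199. The Akr1e1 difference between mother and father cross was 1.03 at dose 2 and -0.39 at dose 1.

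The direct contrast at dose 1 called 1 of 17400 genes (0.00575%), Gm9199, with 2188 genes (12.6%) at an unadjusted p under 0.05. The call was lost with the compared libraries alone (lowest edgeR adjusted p = 0.17) and with all 27 ovary libraries (lowest edgeR adjusted p = 0.15), while DESeq2 called 49 genes. Of the 20 genes of lowest p without overlap at dose 2, 15 had the same sign at dose 1, where 9678 of all 17400 genes did. Rnf182 was the gene among the 20 with an unadjusted edgeR p under 0.05 at dose 1, with a log2 fold change of 0.39, and 0 of the 20 were called. In F2 testis the dose 2 mother cross against the dose 2 father cross gave 23 called genes of 19379 (0.119%), 9 higher and 14 lower, and 3106 (16%) at an unadjusted p under 0.05. That count was 0 with all 27 testis libraries (lowest edgeR adjusted p = 0.082) and 13 with size factors from relative log expression. It was 47 with the compared libraries alone, 280 with a block for the library letter and 470 by DESeq2. Of the 20 genes, 19 were tested there, 10 had the same sign as in the ovary, where 8124 of 16213 genes did, and 0 were called. Leaving out single testis libraries gave 0 to 19 genes, with 2, 3 and 0 without mother A, B and C and 0 without father A or B. The dose 1 count was 1079 without dose 1 mother A, where only dose 1 mother B and C remain, and 3 without dose 1 father A. Dose 1 mother B and C both stood apart on the principal components and also enter the difference between doses. Their part in these counts was not tested. The difference between the tissues was not tested. In testis 3 of the 20 genes had an unadjusted edgeR p under 0.05. Their log2 fold change was 0.28 for Inhbb, 0.47 for Rnf182 and -0.52 for Ntm, each with its sign in the ovary at dose 2. Gata6 had -0.13. In the dose 1 contrast of the ovary Inhbb had the other sign, at -0.20, while Rnf182 had 0.39 and Ntm -0.25.

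The genes whose level followed Gata6 most closely over the 18 F2 ovary libraries were Rnf182 (Pearson r = 0.79), Manba (0.78), Gnaz (0.78), Rflnb (0.77) and Nicn1 (0.77). These are descriptions of libraries that share crosses and depth, and they carry no test. Between the mother and the father cross Rnf182 differed by 0.54, Gnaz by 0.42, Rflnb by 0.26, Manba by 0.17 and Nicn1 by 0.15 on the log2 scale, all higher in the mother cross.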

How the data were processed

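RNA of ovary was sequenced from a stranded mRNA ligation library with reads of 100 nt, per the labels. The authors deposited raw counts per gene, which are not normalized, for 26264 genes. Tools named in the submitters' processing notes are featureCounts 2.0.3 for counting, TopHat2 2.1.1 with Bowtie2 2.4.5 for alignment, DESeq2 1.32.0, SAMtools 1.13, bcl2fastq 2.20 and FastQC 1.19, and the build is mm39. The sources used here do not give the annotation or the strand setting, which leaves antisense, overlapping and paralogous genes uncertain. All columns were mapped to samples.

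The counts of the 18 F2 ovary libraries (37.9 to 84.7 M) entered 1 edgeR model (version 4.0.16, R 4.3.3) with group means, TMM scaling, filterByExpr at a minimum count of 10 (17400 genes kept, 8864 left out), two-sided quasi-likelihood F tests and Benjamini-Hochberg adjustment at 0.05. F2 testis was fitted alike. Intervals are 95% and unadjusted. Counts of replicate libraries differed by more than counting error (lowest chi-square per degree of freedom 23.3). Since fewer than 10 genes passed, the named genes were the 10 of lowest unadjusted p in each direction without overlap and averaging 1 CPM or more in the higher cross, 16 ovarian genes, the 5 of lowest interaction p and the 5 most like the leading gene in log2 CPM with a prior count of 2; other genes named are list members or genes called by an alternative, chosen after their values were seen. The comparison and lists were chosen with earlier results of these data known. The procedure was tested on simulated data. The alternatives tried were size factors from relative log expression (RLE), all genes unfiltered, DESeq2 1.42.0, a replicate block, the compared libraries alone, all 27 libraries of a tissue, each library left out and, added after seeing the data, a fit without the 3 libraries that stand apart.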

Additional observations from a re-analysis of the deposited data

Results flagged for a closer look

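The reciprocal contrast differed between the doses for 1 gene, Gm9199, by an edgeR test of the difference itself. Its mother minus father change was -0.46 at dose 2 and 6.42 at dose 1 on the log2 scale, a difference of -6.88 (edgeR adjusted p = 0.00415). With all 27 ovary libraries in the fit no gene was called for this difference (lowest edgeR adjusted p = 0.87). The dose 1 father libraries held 3, 4 and 0 counts and the dose 1 mother libraries 233, 114 and 299, a ratio of 92.7 with a counting interval of 44.7 to 231. In the control cross, the dose 2 crosses and the cross with both parents from dose 2 the gene was at 0.836 to 5.01 CPM. In F1 ovaries it was at 0.0225 to 2.02 CPM in controls, 2.03 to 5.78 CPM at dose 1 and 0.0209 to 1.78 CPM at dose 2. Levels near 0 were thus not particular to the dose 1 father cross. The reads behind this predicted gene were not analysed here.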

How the results depend on the processing

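The count for the dose 2 mother against father cross was 0 under RLE size factors, no filter, the replicate block, all 27 libraries, each library left out and the fit without the 3 libraries that stand apart; it was 2 by DESeq2 and 1 with the compared libraries alone. DESeq2 called 3 genes for the difference between doses, 24 and 7 for the dose 2 mother and father crosses against the control cross, 49 at dose 1 and 470 in testis. The compared libraries alone gave 2 genes for the difference between doses, 0 at dose 1 and 47 in testis; all 27 libraries of a tissue gave 0 for each of these. RLE gave 13 in testis. The fit without the 3 libraries gave 1 gene, Sfrp4, for the dose 2 mother cross against the control cross. With single libraries left out the difference between doses gave 1 to 2 genes, dose 1 gave 1 to 1079 and testis 0 to 19. The 1079 came without mother A, which leaves dose 1 mother B and C, both among the 3 libraries that stand apart. The cause of these changes was not tested. The library letters were not taken as pairs: correlations of same-letter deviations were -0.03, 0.00 and -0.11 in the main comparison and between -0.13 and 0.06 in the other ovary comparisons. In testis they were 0.05, 0.10 and 0.08, where each mother library correlated best with the father library of its own letter. The replicate block gave 280 genes in testis and 0 in the main comparison, and changed no other call. The median standard error was 0.189 with 18 libraries, 0.125 with the 6 alone and 0.149 without the 3 that stand apart, with 414, 1014 and 988 genes at an unadjusted p under 0.05. With single libraries left out the log2 fold change ran from -0.0296 to 0.145 for Hsd3b1, -0.0207 to 0.340 for Ptgs1, -0.187 to 0.0935 for Amh, -0.0269 to 0.145 for Esr1 and -0.00686 to 0.152 for Inha. Of the other values of named genes under the alternatives, 506 kept their direction and their side of the threshold, and Gata6 (0.55) and Akr1e1 (1.03) passed by DESeq2. Of the list medians 423 stayed within their spread and 19 moved; beside those given with their lists, the gonadotropin receptor median went from -0.07 to 0.08 without mother C, and that of skeletal muscle markers from 0.13 to -0.01 unfiltered and to -0.00 without mother C or father A. RLE moved the median of all genes by 0.00117. With 3 libraries a cross, differences under about 1.5-fold were not bounded for many genes.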
